A study of Mus musculus with 6 samples.

Results

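H3K9me3 signal was examined over the loci of 4 mouse genes, Lgmn, Baalc, Actr3 and Cyb5r3, in endothelial progenitor cells (EPCs) of male, female and ovariectomized female mice. The loci were selected on the signal itself: in the comparison of female with male cells, the 5 regions with the smallest p-value among those higher in female cells, with values that did not overlap between the groups, were assigned by the authors to these genes, and Lgmn held 2 of them. Every region assigned to the 4 genes and every region within 100 kb of one was then taken, 49 regions of the 58511 in the series. Of these, 24 carried the name of one of the 4 genes and 25 were neighbours, and 44 had no part in the choice.

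The cells were Sca-1+/CD31+ bone marrow cells of 8-week-old C57BL/6 J mice, sorted with magnetic beads and expanded in EGM-2 medium. M-EPC came from male mice, F-EPC from female mice and OVX-EPC from female mice whose ovaries had been removed, with 2 libraries in each group. No other genotype or treatment was given for any group. The vials of a group were set aside in duplicates and the labels do not tie them to separate mice, so p-values here measure only the spread between these samples, which may be technical. H3K9me3 was mapped by CUT&Tag, in which an antibody tethers a transposase to chromatin that carries the mark, and the cut fragments are sequenced.

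H3K9me3 is trimethylation of lysine 9 on histone H3. It is read by HP1 proteins, packs repeats and silent genes into heterochromatin, and is generally low at the start sites of active genes. The 4 genes act in separate processes. Lgmn encodes legumain, a lysosomal protease that cuts after asparagine and matures several cathepsins. Actr3 encodes Arp3, an actin-like subunit of the Arp2/3 complex, which starts branched actin filaments at the edge of moving cells. Cyb5r3 encodes NADH-cytochrome b5 reductase, an enzyme that in endothelium acts on the iron of alpha globin and so on nitric oxide signalling. Baalc encodes a membrane-associated protein of brain and haematopoietic progenitor cells that is known from acute leukaemia.

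Both F-EPC libraries held no reads past a point in the chromosome order, and comparisons with F-EPC were made on the 26999 regions before the first such point, which hold all 49 regions. In those regions the libraries held 200296 to 288353 reads, with a median of 5 to 8 reads per region and library, so single regions rest on few reads. The F-EPC libraries were the deepest of the 6, at 288353 and 252356 reads, and M-EPC replicate 1 was the shallowest, and the part of depth in the differences below was not tested. Values below are reads divided by 1 factor per library (0.83 to 1.30, the median of ratios over the 23477 regions with reads in all 6 libraries) and are called scaled reads. The endothelial marker genes Pecam1, Cdh5, Kdr, Tek, Vwf and Emcn had 1 to 15 regions each, the progenitor markers Ly6a, Kit and Cd34 had 0, and of 7 markers of other blood cells Itgam, Cd68 and Csf1r had 1 to 4. For a silencing mark these counts give no measure of expression, so the cell type could not be checked with them. Regions of the Y-linked Kdm5d and Eif2s3y held 28 and 20 reads in M-EPC, while both OVX-EPC libraries had 0. The Y chromosome lies past the point where the first F-EPC library stopped holding reads, so F-EPC was not checked in this way.

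The sequences of the regions that chose the loci show what kind of DNA carried the difference. They are given on the plus strand of GRCm38 (RefSeq GRCm38.p6) with each CpG in capitals, over the central 300 bases. For Cyb5r3 they cover the 71 bases that lie outside a RefSeq exon overlapping the region.
Baalc, 24.4 kb upstream of the gene, chr15:38908379-38908678: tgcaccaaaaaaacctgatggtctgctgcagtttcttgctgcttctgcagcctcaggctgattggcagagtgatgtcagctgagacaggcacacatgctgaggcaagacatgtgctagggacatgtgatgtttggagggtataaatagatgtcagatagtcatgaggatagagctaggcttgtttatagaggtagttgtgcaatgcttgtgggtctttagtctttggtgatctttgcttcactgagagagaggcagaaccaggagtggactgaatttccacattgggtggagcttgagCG
Lgmn, 3.9 kb upstream of the gene, chr12:102443718-102444017: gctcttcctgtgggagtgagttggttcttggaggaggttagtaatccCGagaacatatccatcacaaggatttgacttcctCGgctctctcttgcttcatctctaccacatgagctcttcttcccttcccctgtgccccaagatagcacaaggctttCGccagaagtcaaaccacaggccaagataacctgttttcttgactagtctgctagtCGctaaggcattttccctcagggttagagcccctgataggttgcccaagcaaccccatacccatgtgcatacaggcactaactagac
Lgmn, in an intron of the gene, chr12:102426365-102426664: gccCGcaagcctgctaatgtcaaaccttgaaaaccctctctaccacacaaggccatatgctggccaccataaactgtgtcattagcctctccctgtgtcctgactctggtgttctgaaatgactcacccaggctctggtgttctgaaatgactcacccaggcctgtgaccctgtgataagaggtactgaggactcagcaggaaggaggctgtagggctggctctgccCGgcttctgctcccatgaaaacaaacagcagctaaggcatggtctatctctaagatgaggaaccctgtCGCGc
Actr3, 2.1 kb past the gene end, chr1:125390501-125390800: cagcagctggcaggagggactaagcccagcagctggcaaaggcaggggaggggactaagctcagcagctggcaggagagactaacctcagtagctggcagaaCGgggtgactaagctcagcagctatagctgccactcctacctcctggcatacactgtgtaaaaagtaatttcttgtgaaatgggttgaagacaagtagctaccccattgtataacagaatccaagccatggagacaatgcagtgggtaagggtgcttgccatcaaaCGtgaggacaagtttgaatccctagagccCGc
Cyb5r3, 1.6 kb upstream of the gene, chr15:83174563-83174633: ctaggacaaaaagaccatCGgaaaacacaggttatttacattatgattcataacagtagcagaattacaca

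For contrast, the regions that span the starts of Lgmn and Actr3, where the groups overlapped, hold many more CpGs. Their bases upstream of the outermost annotated start are given in the same way.
Lgmn start, chr12:102439814-102440113: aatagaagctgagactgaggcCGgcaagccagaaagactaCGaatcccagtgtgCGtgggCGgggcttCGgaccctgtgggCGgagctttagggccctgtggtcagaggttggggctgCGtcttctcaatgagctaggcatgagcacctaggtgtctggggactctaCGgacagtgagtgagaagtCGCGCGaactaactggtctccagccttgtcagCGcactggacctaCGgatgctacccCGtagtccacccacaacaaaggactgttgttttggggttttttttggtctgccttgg
Actr3 start, chr1:125435728-125435844: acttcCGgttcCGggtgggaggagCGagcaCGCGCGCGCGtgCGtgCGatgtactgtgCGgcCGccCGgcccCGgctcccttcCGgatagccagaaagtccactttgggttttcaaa

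Over their full 400 bp the regions that chose the loci held 2 (Baalc), 5 (Lgmn, upstream), 9 (Lgmn, intronic), 4 (Actr3) and 3 (Cyb5r3) CpGs, and the median over covered regions of that length was 3 with an interquartile range of 2 to 7. The start regions of Lgmn, Cyb5r3 and Actr3 held 16, 34 and 39. GC content of the choosing regions ran from 46.25% to 54.25%, around the median of 48% over covered regions. Repeats annotated in the reference (soft-masked bases) filled 70.5% of the Baalc region and 7.75% of the Actr3 region, with 21.75% as the median over covered regions. Most 25-base words of these regions occur once in the genome, from 73.1% of the words in the Actr3 region to 94.95% in the upstream Lgmn region. Short factor motifs were searched on both strands as a description. The ETS motif GAGGAAG was in 3 of the 5 regions and in 8 of the other 44, with 16.2% of the 26776 covered 400-bp regions holding it. The AP-1 motif, TGANTCA, was in 2 of 5, with 12.6% of covered regions holding it. C/EBP (TTGCNNAA) was in 2 of 5, with 13.7% of covered regions. The RUNX motif TGTGGTT was in 1 of 5, with 8.96% of covered regions. A motif of the GATA factors, AGATAA, was in 1 of 5, with 15.5% of covered regions. The E-box CACGTG was in 0 of 5, with 5.47% of covered regions. No motif holds another within it, and sites of different motifs may overlap in one region.

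In all 5 choosing regions the mean of M-EPC was the lowest, that of OVX-EPC in between and that of F-EPC the highest. Fewer cells with the mark and less of it per cell cannot be told apart in such libraries. As the difference of F-EPC from M-EPC chose them, the values that follow are a description and carry no test, and OVX-EPC is described against the same libraries. Among 8139 regions tested by limma in F-EPC against M-EPC, 0.172% were called higher in F-EPC and 1.79% were called in either direction.

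The Baalc region, chr15:38908329-38908728, lies 24.4 kb upstream of the gene. Its scaled reads were 29.9 and 18.5 in F-EPC, with OVX-EPC at 16.0 and 18.2 and M-EPC at 7.2 and 2.9. These rest on 39 and 21, 15 and 18, and 6 and 3 reads. Both M-EPC libraries were below the other 4, and OVX-EPC overlapped neither group. The log2 fold change was 2.13 ± 0.43 (SE, n = 2 per group) for F-EPC and 1.70 ± 0.52 for OVX-EPC, both relative to M-EPC, and OVX-EPC stood closer to F-EPC (-0.44 ± 0.32) than in the other 4 regions. The authors placed the region in an intron of a transcript of Gm26704, a noncoding RNA gene. In GENCODE M21 Gm26704 spans chr15:39003285-39006185, and the region lies outside every gene.

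The upstream Lgmn region, chr12:102443668-102444067, lies in intergenic DNA 3.9 kb before the gene start. Scaled reads were 21.5 and 32.6 in F-EPC, with OVX-EPC at 14.9 and 14.1 and M-EPC at 6.0 and 7.8, from 28 and 37, 14 and 14, and 5 and 8 reads. The 3 groups did not overlap. The log2 fold change was 1.82 ± 0.37 (SE) for F-EPC and 1.02 ± 0.46 for OVX-EPC, both relative to M-EPC. OVX-EPC differed from F-EPC by -0.82 ± 0.32.

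The intronic Lgmn region, chr12:102426315-102426714, lies 13.1 kb into the gene and 2546 bp before the start of a shorter transcript, for which the authors called it a promoter region. Its scaled reads were 26.1 and 26.4 in F-EPC, with OVX-EPC at 9.6 and 17.2 and M-EPC at 9.6 and 4.9. OVX-EPC replicate 1 was level with M-EPC replicate 1, so this was the one choosing region where OVX-EPC and M-EPC met. The log2 fold change was 1.80 ± 0.38 (SE) for F-EPC and 0.85 ± 0.48 for OVX-EPC, each against M-EPC, and OVX-EPC was at -0.97 ± 0.33 relative to F-EPC.

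The Actr3 region, chr1:125390451-125390850, lies 2.1 kb past the end of the gene. Scaled reads were 25.3 and 25.6 in F-EPC, with OVX-EPC at 11.7 and 14.1 and M-EPC at 9.6 and 5.8. The F-EPC libraries were nearly equal and far above the highest of the others, OVX-EPC replicate 2. The log2 fold change was 1.64 ± 0.37 (SE) for F-EPC and 0.74 ± 0.47 for OVX-EPC, both relative to M-EPC. OVX-EPC differed from F-EPC by -0.92 ± 0.33.

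The Cyb5r3 region, chr15:83174234-83174633, lies 1.6 kb upstream of the gene, over exons of 2 noncoding genes in GENCODE M21, the antisense gene Gm49463 and 7530414M10Rik. Scaled reads were 20.7 and 17.6 in F-EPC, with OVX-EPC at 8.5 and 16.1 and M-EPC at 7.2 and 1.9, where the lower library held 2 reads. OVX-EPC spread widely, with one library near M-EPC and the other near F-EPC. The log2 fold change was 2.04 ± 0.49 (SE) for F-EPC and 1.41 ± 0.59 for OVX-EPC, relative to M-EPC, and OVX-EPC was at -0.65 ± 0.36 relative to F-EPC. It was the last region inside the choice. The first outside it, assigned to Sdk2, had 21.5 and 18.5 scaled reads in F-EPC, with OVX-EPC at 12.8 and 16.1 and M-EPC at 4.8 and 6.8, and a log2 fold change of 1.65 ± 0.40.

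**Figure D1:**
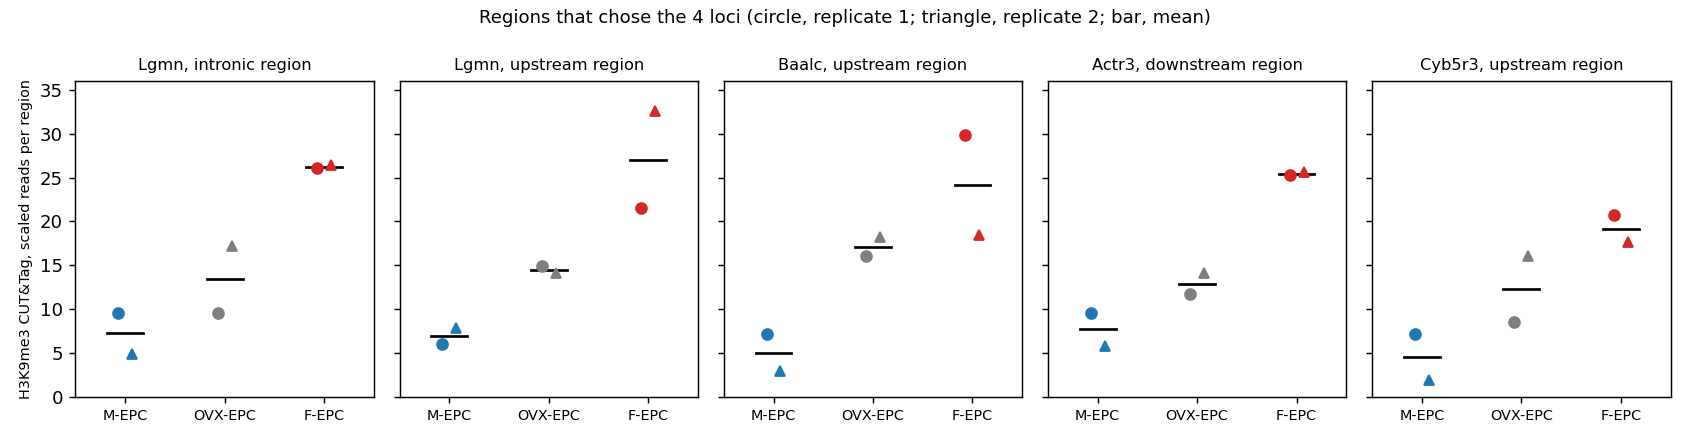
Scaled H3K9me3 reads (vertical axis, linear from 0) of the 5 regions that chose the loci, in the 2 libraries of M-EPC, OVX-EPC and F-EPC (points) with the group mean (bar). M-EPC lies between 1.9 and 9.6 scaled reads, F-EPC between 17.6 and 32.6, and OVX-EPC between 8.5 and 18.2.

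At the starts of the same genes the groups did not separate in this way. The region over the Lgmn start, chr12:102439772-102440171, held 16.1 and 19.4 scaled reads in F-EPC, 18 and 11.7 in M-EPC, with OVX-EPC at 10.7 and 20.2, and the groups overlapped. The region over the Actr3 start, chr1:125435445-125435844, held 19.9 and 44.1 in F-EPC, 30 and 25.3 in M-EPC, with OVX-EPC at 20.3 and 31.3. Here the replicates of F-EPC differed more than any pair of group means. The Cyb5r3 start region, chr15:83172058-83172457, lies 135 bp inside the gene and overlaps an exon. It held 17.6 and 23.8 in F-EPC, 28.8 and 28.2 in M-EPC, with OVX-EPC at 20.3 and 27.2. M-EPC lay above the other 4 libraries, the opposite order to the choosing region 1776 bp away. None of these regions was called by limma with Benjamini-Hochberg adjustment: log2 fold changes of F-EPC against M-EPC were 0.27 (adjusted p = 0.676), 0.11 (0.875) and -0.46 (0.368), and of OVX-EPC against M-EPC 0.06 (0.958), -0.08 (0.927) and -0.22 (0.754). No region lay at the start of Baalc.

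**Figure D2:**
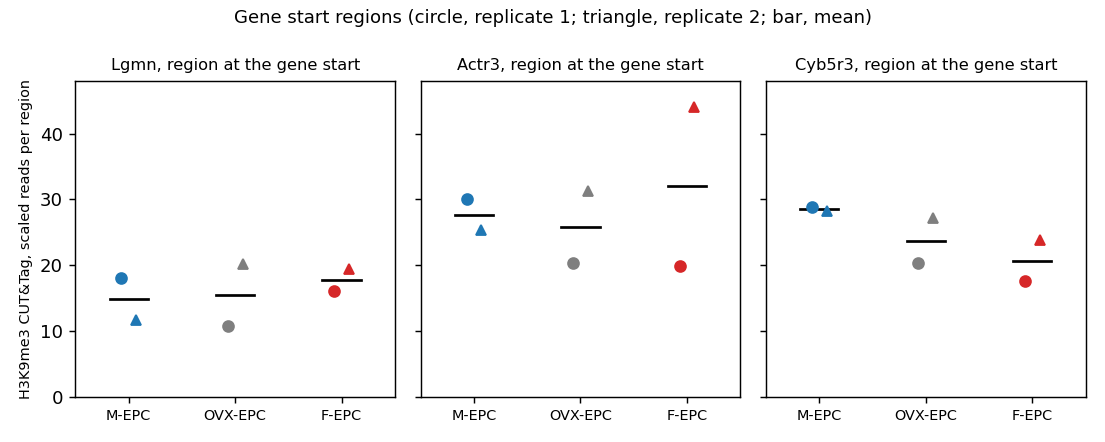
Scaled H3K9me3 reads (vertical axis, linear from 0) of the regions at the starts of Lgmn, Actr3 and Cyb5r3, by library (points) with the group mean (bar). The groups overlap at Lgmn and Actr3, and at Cyb5r3 M-EPC, at 28.8 and 28.2, lies above the other libraries.

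Of the 44 regions not used by the choice, limma called 0 in each of the 3 comparisons, after 16 were tested in F-EPC against M-EPC, 10 in OVX-EPC against M-EPC and 14 in OVX-EPC against F-EPC. Over all regions tested, 1.79%, 0.449% and 0.0127% were called. At an unadjusted limma p under 0.05, 3 regions were higher and 1 was lower in F-EPC than in M-EPC, 1 was lower in OVX-EPC than in M-EPC and 3 were lower in OVX-EPC than in F-EPC. Over all regions tested, 22.8%, 16.1% and 6.22% were under that p in the 3 comparisons. So 4 of 16 in F-EPC against M-EPC and 1 of 10 in OVX-EPC against M-EPC were near or below the background. The 3 of 14 in OVX-EPC against F-EPC were above it. They were assigned to Lgmn, Actr3 and Cyb5r3 and were high in the F-EPC libraries that the choice used. All regions under that p reached the filter in both libraries of the higher group, so these counts support no difference. edgeR and DESeq2 also called 0 of the 44 in each comparison. Counted over all 44 regions, with no filter, both F-EPC libraries were above both M-EPC libraries in 7, against 22.2% of all covered regions. Of these 7, 6 were among the 19 other regions of the 4 genes and 1 among the 25 neighbours. This split, in libraries that the choice used, was not tested. Over the 44, OVX-EPC was above M-EPC in 7 (5 and 2), against 20.7%, and below F-EPC in 8 (4 and 4), against 17.1%. The median log2 fold change of the 44 was 0.13 for F-EPC and 0.02 for OVX-EPC, both relative to M-EPC, beside 0.05 and 0.01 over all regions. Over the regions that passed the filter the medians of all regions were -0.19 and -0.16, and with TMM factors -0.06 and 0.00, and the fold changes here are on the deposited scale.

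Next to 2 of the choosing regions, adjacent windows showed the same order of F-EPC over M-EPC without being called. Past the Actr3 end, the region chr1:125391133-125391532, 282 bp nearer to the gene, held 12.3 and 14.1 scaled reads in F-EPC, 6.0 and 1.9 in M-EPC, with OVX-EPC at 3.2 and 8.1. The region chr1:125391723-125392122, a further 190 bp on, held 14.6 and 10.6 in F-EPC, 1.2 and 9.7 in M-EPC, with OVX-EPC at 4.3 and 7.1. In both, F-EPC lay above the 4 other libraries. The limma log2 fold changes against M-EPC were 1.65 (adjusted p = 0.116) and 1.48 (adjusted p = 0.181). Those of OVX-EPC against F-EPC were -1.20 (limma, adjusted p = 0.769) and -1.04 (adjusted p = 0.790). Both windows passed the filter for testing by their F-EPC libraries, the higher group, so these p-values describe them and support no difference. A sequenced fragment can reach from one of these windows into the next, so the 3 are not independent. The value of the second rested on the M-EPC library used, as its M-EPC values were 1.2 and 9.7. Without M-EPC replicate 2 its log2 fold change was 2.63 (limma, adjusted p = 0.0146) and without M-EPC replicate 1 it was 0.33 (adjusted p = 0.749), where the lone M-EPC library is assumed to vary like F-EPC.

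Upstream of Baalc, the region chr15:38907175-38907574, 754 bp from the choosing one, held 8.4 and 7.9 scaled reads in F-EPC, 1.2 and 2.9 in M-EPC, with OVX-EPC at 16.0 and 3.0. It did not reach a value of 10 in 2 libraries of any table and was not tested. The third Baalc region, chr15:38883489-38883888, had its highest values in M-EPC, 7.2 and 10.7, against 5.4 and 5.3 in F-EPC, with OVX-EPC at 5.3 and 5.0. The 3 neighbours, named by the authors for Gm26704, also had higher means in M-EPC than in F-EPC, with log2 fold changes of F-EPC against M-EPC of -0.72, -0.67 and -0.21. The first of them, chr15:38974575-38974974, was tested through its M-EPC libraries, the higher group (limma, adjusted p = 0.313), and 99.25% of it is annotated repeat.

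Inside Lgmn, the intronic region chr12:102429614-102430013, 2899 bp from the choosing one, held 15.3 and 21.2 scaled reads in F-EPC, 10.8 and 10.7 in M-EPC, with OVX-EPC at 10.7 and 8.1. F-EPC was above both other groups, with a log2 fold change of 0.70 against M-EPC (limma, adjusted p = 0.245) and OVX-EPC at -0.88 against F-EPC (adjusted p = 0.768). The intergenic region chr12:102445321-102445720, 1253 bp from the upstream choosing region, held 17.6 and 24.7 in F-EPC, 18 and 16.5 in M-EPC, with OVX-EPC at 14.9 and 20.2, and the groups overlapped. The region at the start of Golga5, which encodes a golgin of the Golgi membrane, held 12.3 and 15 in F-EPC, 15.6 and 16.5 in M-EPC, with OVX-EPC at 13.9 and 19.2. Its log2 fold change of F-EPC against M-EPC was -0.23 (adjusted p = 0.731). The weaker Lgmn regions were chr12:102412752-102413151, in an intron, and chr12:102387527-102387926, which lies over an exon of the next gene, Rin3. They had log2 fold changes of 1.19 and 0.52 for F-EPC against M-EPC and were not tested in any table. The 5 regions named for Rin3, a gene for an activator of the small GTPase Rab5, ran from -1.10 to 0.62. Among them, chr12:102366139-102366538 held 13.8 and 7.9 scaled reads in F-EPC, 7.2 and 5.8 in M-EPC, with OVX-EPC at 6.4 and 13.1 (OVX-EPC against F-EPC, limma, adjusted p = 0.982). The farther chr12:102301871-102302270 held 3.8 and 9.7 in F-EPC, 4.8 and 3.9 in M-EPC, with OVX-EPC at 9.6 and 7.1 (adjusted p = 0.968 in the same fit). OVX-EPC overlapped F-EPC in both.

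Around Cyb5r3 the regions split in both directions. The intronic region chr15:83166650-83167049 held 15.3 and 12.3 scaled reads in F-EPC, 7.2 and 6.8 in M-EPC, with OVX-EPC at 9.6 and 4.0. F-EPC lay above the other 4 libraries, at a log2 fold change of 0.89 over M-EPC (limma, adjusted p = 0.205), and OVX-EPC was at -1.01 against F-EPC (adjusted p = 0.777). The intergenic region chr15:83204520-83204919 went the other way, with 6.1 and 5.3 in F-EPC, 14.4 and 10.7 in M-EPC, with OVX-EPC at 6.4 and 2.0. M-EPC lay above the other 4 libraries there, at a log2 fold change of -1.01 for F-EPC (limma, adjusted p = 0.202). Each of these regions passed the filter for testing by both libraries of its higher group, so these p-values are a description only. Between them, chr15:83192939-83193338 held 25.3 and 15.9 in F-EPC, 26.4 and 23.3 in M-EPC, with OVX-EPC at 26.7 and 29.3. F-EPC and M-EPC overlapped there.

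Of the Cyb5r3 neighbours, the one with the smallest unadjusted p in OVX-EPC against M-EPC was chr15:83221701-83222100, named for A4galt, the synthase of the glycolipid globotriaosylceramide. It held 9.2 and 9.7 scaled reads in F-EPC, 14.4 and 19.4 in M-EPC, with OVX-EPC at 7.5 and 7.1. M-EPC again lay above the others. The log2 fold change of OVX-EPC against M-EPC was -1.05 (limma, adjusted p = 0.242) and that of F-EPC was -0.77 (adjusted p = 0.221). In the test of OVX-EPC it passed the filter by its M-EPC libraries, the higher group, so that p-value is a description only. The region over Rnu12, a small nuclear RNA gene of the minor spliceosome, held 23.0 and 21.2 in F-EPC, 26.4 and 14.6 in M-EPC, with OVX-EPC at 11.7 and 21.2, and the groups overlapped. In the region within A4galt, chr15:83241592-83241991, OVX-EPC at 12.8 and 12.1 lay above M-EPC at 8.4 and 7.8, with F-EPC at 17.6 and 6.2 on either side (OVX-EPC against M-EPC, limma, adjusted p = 0.514). The region chr15:83255231-83255630 held 6.9 and 14.1 in F-EPC, 3.6 and 12.6 in M-EPC, with OVX-EPC at 7.5 and 7.1, a wide spread in both intact groups (F-EPC against M-EPC, limma, adjusted p = 0.623). The remaining 6 neighbours, named for Serhl, Rrp7a, Rnu12 and A4galt, had at most 11.1 scaled reads in any library.

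Around Actr3, the region chr1:125316386-125316785 held 7.7 and 10.6 scaled reads in F-EPC, 12.0 and 3.9 in M-EPC, with OVX-EPC at 7.5 and 9.1, and the groups overlapped (F-EPC against M-EPC, limma, adjusted p = 0.740). The other 4 distal Actr3 regions had log2 fold changes of F-EPC against M-EPC from -0.09 to 0.63. The neighbour chr1:125243635-125244034 had M-EPC above F-EPC, with 5.4 and 2.6 in F-EPC, 6.0 and 11.7 in M-EPC, with OVX-EPC at 11.7 and 9.1 (OVX-EPC against M-EPC, limma, adjusted p = 0.804). The 5 neighbours named for Gm28706 and Slc35f5 ran from -0.80 to 0.53.

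**Figure D3:**
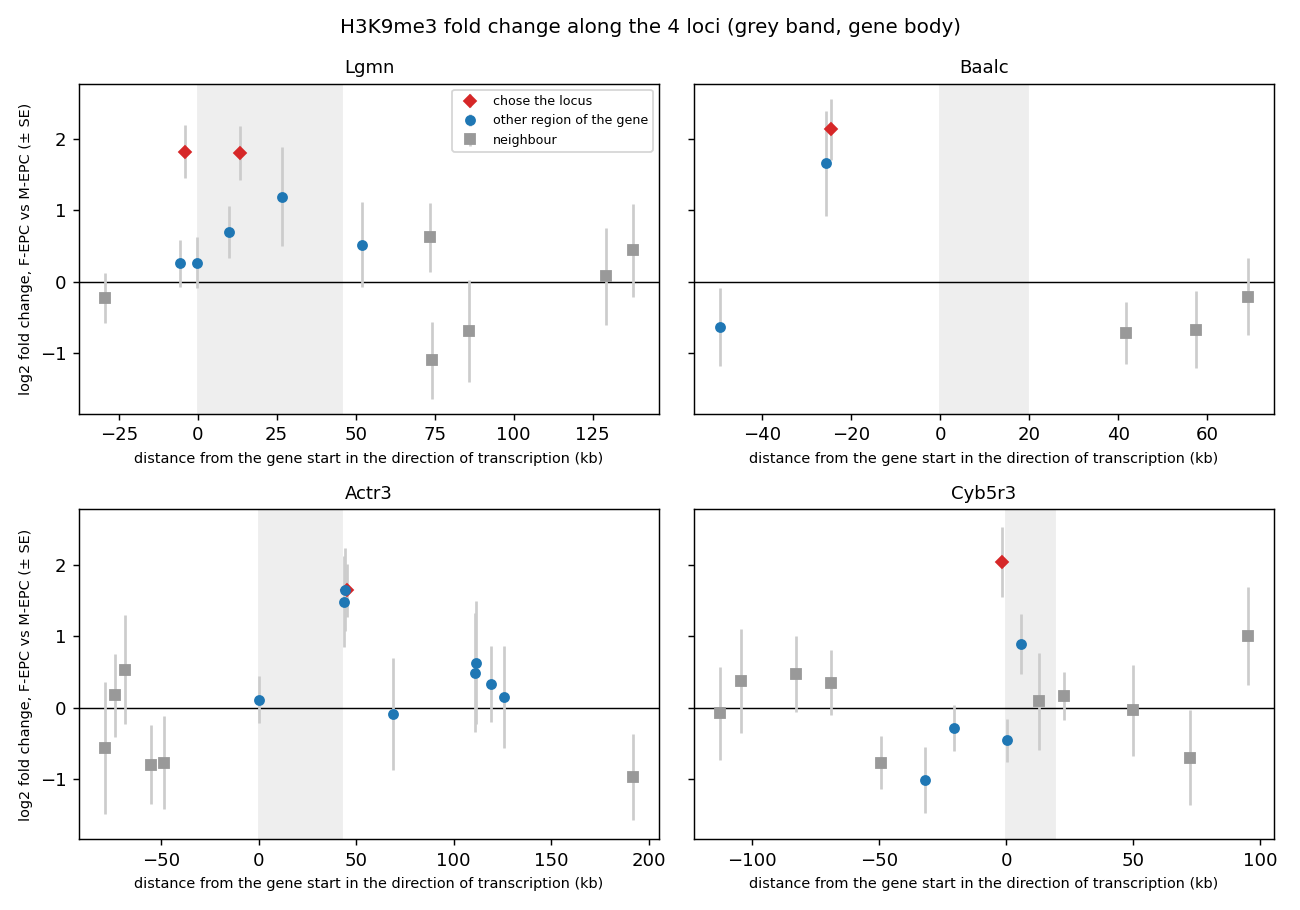
Log2 fold change of F-EPC against M-EPC (vertical axis, bars are the limma SE) of each region by its distance from the gene start in kb, in the direction of transcription (horizontal axis), with the gene body in grey. Regions that chose the loci (diamonds) lie between 1.64 and 2.13, other regions of the genes (circles) between -1.01 and 1.66 and neighbours (squares) between -1.10 and 1.00, on both sides of 0, and the highest circles are the windows next to the Actr3 and Baalc diamonds.

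To ask whether whole loci differed, reads were summed over the regions of each locus that the choice had not used. With 2 libraries against 2, the two-sided exact permutation test cannot go below p = 0.333. The Lgmn sum of 11 regions was 101 and 132 scaled reads in F-EPC, 114 and 87 in M-EPC, with OVX-EPC at 94 and 114, and the groups overlapped in every comparison. The log2 difference of F-EPC from M-EPC was 0.21 with a pooled SD of 0.27 (exact p = 0.667). The Actr3 sum of 14 regions was 104 and 119 in F-EPC, 88 and 106 in M-EPC, with OVX-EPC at 92 and 99. This was a log2 difference of 0.20 with a pooled SD of 0.17 for F-EPC against M-EPC (exact p = 0.667). There F-EPC overlapped M-EPC and lay above OVX-EPC.

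The Baalc sum of 5 regions was 33 and 32 in F-EPC, 36 and 44 in M-EPC, with OVX-EPC at 51 and 31. F-EPC was below M-EPC, by a log2 difference of -0.30 with a pooled SD of 0.14 (exact p = 0.333). Over its regions within 50 kb the difference turned to 0.34 (exact p = 0.667), so its direction rested on the regions counted. The Cyb5r3 sum of 14 regions was 153 and 138 in F-EPC, 163 and 154 in M-EPC, with OVX-EPC at 131 and 133. M-EPC was above both other groups, with log2 differences of -0.12 (pooled SD 0.087) for F-EPC and -0.26 (pooled SD 0.046) for OVX-EPC (exact p = 0.333 for each, the smallest possible). The difference of F-EPC was near 0 under other scaling, at -0.03 with TMM factors and -0.04 with total scaling. On the main scaling and all regions of a locus, no sum had both M-EPC libraries below F-EPC. At Actr3 this rested on the setting. Both M-EPC libraries were below F-EPC with TMM factors (log2 difference 0.30), total scaling (0.28) and regions within 50 kb (0.40). Each of these had exact p = 0.333, the smallest possible.

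**Figure D4:**
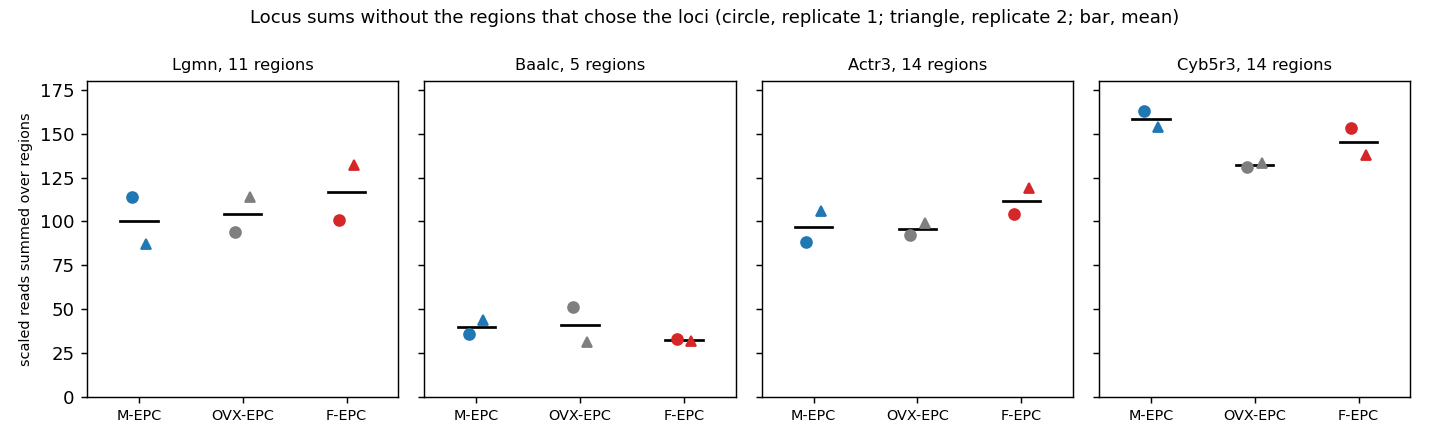
Scaled H3K9me3 reads summed over the regions of each locus that the choice did not use (vertical axis, linear from 0), by library (points) with the group mean (bar). In Lgmn and Actr3 the M-EPC and F-EPC libraries overlap, and in Baalc and Cyb5r3 both M-EPC libraries lie above F-EPC.

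Outside the loci, the covered region whose pattern over the 6 libraries was most like each choosing region was found among 5756 regions with a mean of at least 10 scaled reads. Over so few libraries a close match always exists, and r is given as a description. For Baalc it was chr10:120627902-120628301, an intergenic region named for Gm24298 (Pearson r = 0.986 over 6 libraries). For the upstream Lgmn region it was an intergenic region with no gene name, chr1:122982534-122982933 (r = 0.982), and for the intronic one an intron assigned to 1700030O20Rik, chr10:116725165-116725564 (r = 0.990). The Actr3 region was most like a region at the start of Gm23971, chr11:101645232-101645631 (r = 0.993). The Cyb5r3 region was most like chr12:20228381-20228780 (r = 0.994), which is far stronger, with 69.0 and 86.4 scaled reads in M-EPC and 102.2 and 104.3 in F-EPC.

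Genes related to the 4 members, by function or by being described with them, were followed in 4 lists. limma called 0 of their regions in any comparison. For the Arp2/3 complex and its activators, 13 of 20 genes had a region, and 2 of their 19 regions were tested in F-EPC against M-EPC. The start of Arpc5, a subunit of the complex, held 12.3 and 14.1 scaled reads in F-EPC, 21.6 and 17.5 in M-EPC, with OVX-EPC at 8.5 and 16.1. Its log2 fold change was -0.53 for F-EPC against M-EPC (adjusted p = 0.352). The start of Actr2, the partner of Actr3, held 16.1 and 7.1, 18 and 13.6, and 3.2 and 17.2 in the same order (-0.51, adjusted p = 0.449). Neither had the order of the Actr3 choosing region, in which M-EPC is lowest.

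For lysosomal cysteine proteases and their inhibitors, 11 of 23 genes had a region and 5 of 21 regions were tested in F-EPC against M-EPC, of which 1 was under an unadjusted p of 0.05, beside 22.8% of all regions tested. The starts of Ctsl and Ctsb, cathepsins that legumain can mature, had log2 fold changes of -0.55 (adjusted p = 0.386) and -0.53 (adjusted p = 0.449). For cytochrome b5 and its reductases, 11 of 19 genes had a region and 1 of 23 regions was tested in F-EPC against M-EPC, the start of Cyb5r1, with 10.7 and 11.5 scaled reads in F-EPC, 3.6 and 10.7 in M-EPC, with OVX-EPC at 8.5 and 5.0 (0.73, adjusted p = 0.383). Cyb5d1 had 3.1 and 4.4 in F-EPC and 10.8 and 7.8 in M-EPC and was not tested. For leukaemia and stem cell genes described with Baalc, 14 of 19 genes had a region and 3 of 39 regions were tested, among them the starts of Dnmt3a, a DNA methyltransferase (-0.03, adjusted p = 0.973), and Npm1, a nucleolar chaperone (0.76, adjusted p = 0.248). In OVX-EPC against M-EPC, where all chromosomes could be used, 9, 12, 9 and 10 regions of the 4 lists, in the order given, were tested and 0 were called, with 0, 2, 0 and 2 under an unadjusted p of 0.05, beside 16.1% of all regions tested. Against F-EPC, 2, 2, 1 and 3 were tested, with 0, 0, 0 and 1 under it, beside 6.22%. edgeR and DESeq2 called 0 as well.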

How the data were processed

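H3K9me3 CUT&Tag libraries of 3 groups with 2 samples each were analysed. The authors trimmed paired reads, aligned them to mm10 with Bowtie2 (the submitters' processing notes name BWA and MACS2), used Picard to drop duplicates, filtered on mapping quality, which lowers signal in repeats, and called peaks with MACS. The deposited files, 1 per pair of groups, give a normalized signal per region and library, and fold changes and p-values of the authors' own test, which were not used. Each deposited signal was a whole number of reads (100% of values within 0.01) divided by 1 factor per library and table.

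limma 3.58.1 with a mean-variance trend was fitted to log2(value + 1) of the deposited values of the 4 libraries of a table, for regions with a value of at least 10 in 2 libraries, with Benjamini-Hochberg adjustment over all regions tested and calls under 0.05. Fold changes on this scale understate weak regions, and where a region was not tested the fold change comes from the fit without the filter. Where a single group brought a region past the filter, filter and difference are not independent, and the p-value is a description. Alternatives used edgeR 4.0.16 and DESeq2 1.42.0 on the recovered reads. The fit was tested on simulated data. Scaled reads use factors over all 6 libraries and fold changes those of each table. Sums were tested with SciPy 1.17.1.

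The members, lists and rules were chosen with earlier results of these data known. Values in all libraries are given for the choosing regions, the other regions of the 4 genes and the neighbours that were tested, up to the 5 nearest to each choosing region, and for at most 2 regions per list, those with the highest mean. Coordinates are of mm10, gene models of GENCODE M21 and sequences of RefSeq GRCm38.p6. Same-numbered replicates did not deviate together (r = -0.052, -0.018 and -0.031). With so few libraries and reads per region, this cannot tell whether the numbers pair samples.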

Additional observations from a re-analysis of the deposited data

How the results depend on the processing

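The 5 choosing regions were selected on F-EPC against M-EPC, so their values under other settings describe the choice and support nothing. Their log2 fold changes ran from 1.30 to 2.79. Under total scaling, a pseudocount of 0.1, no filter, edgeR or TMM factors from all regions (an alternative chosen after seeing the data) all 5 stayed under the threshold, with TMM factors 4 (without Cyb5r3), over all deposited regions 2, and with DESeq2 0 of 5 (adjusted p from 0.627 to 0.927). Without M-EPC replicate 1 it was 0 of 5 and without M-EPC replicate 2 it was 1 of 5. Without either F-EPC library only 2 were tested and 0 were under it, and at a minimum of 30 none (0) was tested. The cause was not tested.

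Of the 44 other regions, 0 were called under each alternative, save 1 without M-EPC replicate 2 in F-EPC against M-EPC (range 0 to 1). The list regions, whose alternatives were all added after seeing the data, gave 19 and 12 calls over all deposited regions in F-EPC against M-EPC and OVX-EPC against F-EPC, where regions without F-EPC reads enter by construction, and 0 elsewhere. Over all regions, the calls in F-EPC against M-EPC (14 higher, 132 lower) became 5 and 24 with TMM factors, 32 and 92 with edgeR, 0 and 4 with DESeq2, 28 and 203 without the filter, 29 and 5655 over all deposited regions, 0 and 0 without M-EPC replicate 1 and 102 and 79 without M-EPC replicate 2, 0 and 65 without F-EPC replicate 1 and 0 and 70 without F-EPC replicate 2. Those in OVX-EPC against M-EPC (8 and 68) became 10 and 31 with TMM factors, 66 and 73 with edgeR and 1 and 6 with DESeq2.

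Some sums turned direction under other settings, both near 0 and, at Baalc and Cyb5r3, farther from it. OVX-EPC against M-EPC at Lgmn (0.05) was -0.01 over regions of mean at least 10 or within 50 kb, and at Actr3 (-0.02) it was 0.07 with TMM factors, 0.05 with total scaling and 0.09 within 50 kb. Baalc within 50 kb turned F-EPC against M-EPC (-0.30) to 0.34 and OVX-EPC against F-EPC (0.31) to -0.04, and Cyb5r3 over regions of mean at least 10 turned OVX-EPC against F-EPC (-0.14) to 0.05. With each library left out in turn, OVX-EPC against M-EPC ran from -0.14 to 0.24 at Lgmn, -0.34 to 0.37 at Baalc and -0.15 to 0.12 at Actr3, and OVX-EPC against F-EPC from -0.35 to 0.03 at Lgmn and -0.05 to 0.66 at Baalc. The other 7 sums kept their direction with each library left out, Cyb5r3 in all 3 comparisons among them. The Cyb5r3 sum of F-EPC against M-EPC (-0.12) shrank to -0.03 with TMM factors and -0.04 with total scaling. The cause of these turns was not tested.

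With the replicate number as a block, 0 of the 44 were called in F-EPC against M-EPC, and the sums were the same by construction (0.21 for Lgmn). The block changed no call of the loci. M-EPC libraries held 2 to 8 reads in each choosing region, so a change of a few reads moves these values.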
